A study of Arabidopsis thaliana with 6 samples.

Results

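The comparison concerns whole *Arabidopsis thaliana* seedlings that lack the splicing factor SR45, set against seedlings of the Col-0 accession. It rests on 2 *sr45* and 2 Col-0 libraries, 4 of the 6 in the series, and on all 454 loci of the deposited expression table. The *sr45* plants carry the T-DNA insertion *sr45-1* in *SR45*, a single mutant line in the Col-0 background, and Col-0 is the wild type. Seedlings of both genotypes were grown for 11 days on MS medium at 22 °C in 16 h of light and 8 h of dark, and were taken whole, roots and shoots together. The age is that of the labels, and the study's own text also describes the seedlings as a day younger. The values are cRPKM, a measure of reads relative to the mappable length of the gene and to the mapped reads of the library, so that levels can be set side by side between genes. The table holds only loci that the study had called as changed in at least 1 mutant of this series, so the counts below describe those loci and not a transcriptome, and they partly restate that choice.

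SR45 is a serine- and arginine-rich protein of the ASAP complex, in which it joins SAP18 and ACINUS on spliced mRNA, and it is the plant relative of the animal splicing activator RNPS1. Plants without it are known to flower late and to respond more strongly to glucose and abscisic acid (ABA). The loci were therefore read by function, with flowering, hormones, carbon use, nutrient uptake, defence and cell walls as the main groups, and then by gene structure, because SR45 acts on introns. Of the 358 loci on 30 lists of genes with known functions, 128 were in the table. The lists were drawn up with earlier results of these data known, so a common direction within a list is no separate support.

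The mutant label was checked on *SR45* itself, which lies on chromosome 1 from 5675495 to 5678873 in TAIR10.1 and has 12 exons. *SR45* stood at 5.39 and 4.98 cRPKM in *sr45*, against 23.1 and 19.4 cRPKM in Col-0, 4.10-fold lower. Both mutant libraries were far below both wild-type libraries (log2 change -1.84, standard error 0.16, adjusted p = 6.9e-05 from limma). The transcript was thus still detected, and whether the remaining reads come from one side of the insertion cannot be seen in a value per gene. Its partner *SAP18* had 75.6 and 94.3 cRPKM in *sr45*, against 76.6 and 83.7 cRPKM in Col-0. These ranges overlap (log2 change 0.07, standard error 0.16, adjusted p = 0.68 from limma). The genes of ACINUS and PININ were not among the loci analysed here.

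More of the listed loci fell than rose in *sr45*. By the fold criterion, under which all 4 ratios between a mutant and a wild-type library are at least 2 and one genotype is above 5 cRPKM in both libraries, 52 loci were higher (11.5% of 454) and 137 were lower (30.2%), together 189 (41.6%). When the *sr45* libraries were scaled up to remove a median log2 difference of -0.17, taken from loci called only in the other pair of libraries, the same criterion gave 82 higher and 82 lower. Those loci were picked by their calls in these data and are no neutral reference. The run shows only how far the counts depend on scale. limma, run on log2(cRPKM + 1) with Benjamini-Hochberg adjustment at 0.05, called 125 loci higher (27.5%) and 277 lower (61.0%), together 402 (88.5%), and left 52 without a call. All 189 loci of the fold criterion were among the limma calls, with adjusted p-values up to 0.0055. Both rules read the same *sr45* and Col-0 libraries, so their overlap is no separate support. The adjustment ran over loci already chosen for change, and the adjusted p-values carry that choice. In each of the 402 limma calls the *sr45* libraries did not overlap the Col-0 libraries. With 2 libraries per genotype a call hardly arises without such a gap, so this adds no support. Overlap was not counted for the 52 loci without a call. The loci that rose were at a median of 13.1 cRPKM in *sr45* and 5.85 cRPKM in Col-0, and those that fell at 8.13 cRPKM in *sr45* and 20.2 cRPKM in Col-0. Most changes were moderate, and the means of 17 loci were at least 4-fold higher and those of 22 at least 4-fold lower. The median log2 change over all 454 loci was -0.96, and the median of every list below is to be read beside it.

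**Figure D1:**
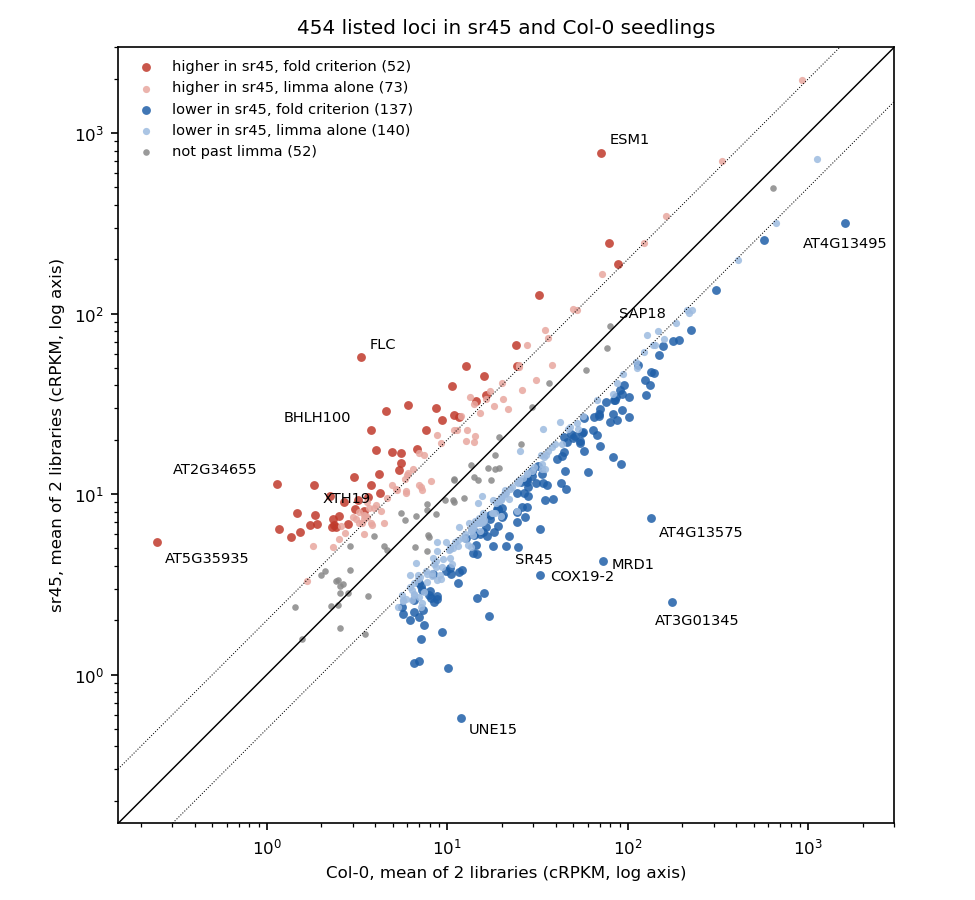
Mean level of each of the 454 loci in *sr45* (vertical) and Col-0 (horizontal), in cRPKM on log axes, with 2 libraries per genotype; the solid line marks equal levels and the dotted lines a 2-fold difference. The 52 loci higher by the fold criterion (dark red) lie mostly under 100 cRPKM with *ESM1* far above them, while the 137 lower loci (dark blue) reach up to AT4G13495.

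The libraries were whole organs mixed in bulk, so fewer cells of a type and less RNA per cell cannot be told apart in any of these values. Nothing in the labels says that the libraries of a genotype came from separate plantings, and the p-values then measure the spread between libraries alone. That spread was a median of 0.21 on the log2 scale between the *sr45* libraries and 0.19 between the Col-0 libraries. The other pair of libraries in the series lent only its spread to the fit. Its labels name both *sap18* and *sap18 sr45*, while *SAP18* was high in it, at 936 and 900.2 cRPKM, so the calls were also made without it, and limma then called 120 loci higher and 276 lower. Of those, 395 were the calls made with all libraries. Markers of tissues were few in the table: 5 of 9 root markers, 1 of 8 leaf markers and 0 of 8 flower and seed markers. The root markers summed to 57.6 and 67.8 cRPKM in *sr45*, against 32.6 and 42.1 cRPKM in Col-0. By limma 2 of the 5 were higher, beside 27.5% of all loci, and the leaf marker *LHCB4.3* was also higher. The part of tissue composition in the results below was not tested.

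The deepest losses in *sr45*, ranked by the log2 change of cRPKM + 1, were of loci whose functions are little known. AT3G01345, an intronless locus for an uncharacterized protein on chromosome 3, had 1.29 and 3.79 cRPKM in *sr45*, against 189 and 161 cRPKM in Col-0, 69.0-fold lower (log2 change -5.73, standard error 0.31). AT4G13575, also uncharacterized, had 7.14 and 7.61 cRPKM in *sr45*, against 126 and 143 cRPKM in Col-0. *MRD1*, named for its fall in a methionine over-accumulating mutant, had 5.73 and 2.83 cRPKM in *sr45*, against 73.4 and 72.0 cRPKM in Col-0. In all of these the mutant kept a small fraction of the wild-type level in both libraries, with no overlap, as at every limma call. *UNE15*, a late embryogenesis abundant protein gene, was at 0.544 and 0.611 cRPKM in *sr45*, against 11.9 and 11.8 cRPKM in Col-0. *COX19-2*, a homologue of a yeast assembly factor of cytochrome c oxidase, followed with 4.20 and 2.98 cRPKM in *sr45*, against 36.6 and 28.4 cRPKM in Col-0. The remaining loci among the 12 deepest falls on that scale, which ranks low genes behind others of the same fold, were between 5-fold and 9.23-fold lower: AT1G65370 of the TRAF-like family, the apyrase gene *APY5*, the nudix hydrolase gene *NUDT8*, the non-coding RNA AT4G13495, AT2G30600 with a BTB/POZ domain, *HRD1B*, whose yeast counterpart is a ubiquitin ligase of the endoplasmic reticulum, and *CBP60F* for a calmodulin-binding protein. Their adjusted p-values from limma were all at or under 7.5e-05. All 12 loci were also below both Col-0 libraries in the other pair of libraries, where *SR45* stood at 20.9 and 23.1 cRPKM. There AT3G01345 had 0.384 and 0.291 cRPKM, *MRD1* 2.86 and 4.36 cRPKM and *COX19-2* 5.18 and 6.07 cRPKM. Other falls were shallower there than in *sr45*, such as AT4G13575 at 47.2 and 42.6 cRPKM and AT2G30600 at 55.4 and 56.8 cRPKM. Whether these falls depend on the loss of SR45 was not tested.

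On the same scale the steepest rise was that of the flowering repressor *FLC*, at 57.8 and 57.4 cRPKM in *sr45*, against 2.73 and 3.93 cRPKM in Col-0. *ESM1*, a myrosinase-associated GDSL-lipase-like gene that shapes the products of glucosinolate breakdown, had 808 and 749 cRPKM in *sr45*, against 71.1 and 71.4 cRPKM in Col-0. On the log2 scale these were 3.77 and 3.43 higher (adjusted p = 5.0e-06 and 3.8e-06 from limma). AT5G35935, annotated as a pseudogene, was barely present in Col-0 and rose to 5.35 and 5.54 cRPKM in *sr45*, against 0.265 and 0.228 cRPKM in Col-0, which is 22.1-fold on the means and more than the 17.3-fold of *FLC*. AT2G34655 had 12.05 and 10.6 cRPKM in *sr45*, against 1.26 and 1.01 cRPKM in Col-0, and the pseudogene AT4G04293 27.7 and 35.0 cRPKM in *sr45*, against 5.06 and 7.003 cRPKM in Col-0. None of the 3 has an annotated function. The rest of the 12 largest rises were AT4G22513 of the lipid-transfer superfamily, the iron-related *BHLH100*, AT2G30766 and *ORG2*, the cell wall gene *XTH19*, AT2G14247, and AT3G49400 for a WD40-repeat protein, between 3.91-fold and 6.24-fold higher.

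**Figure D2:**
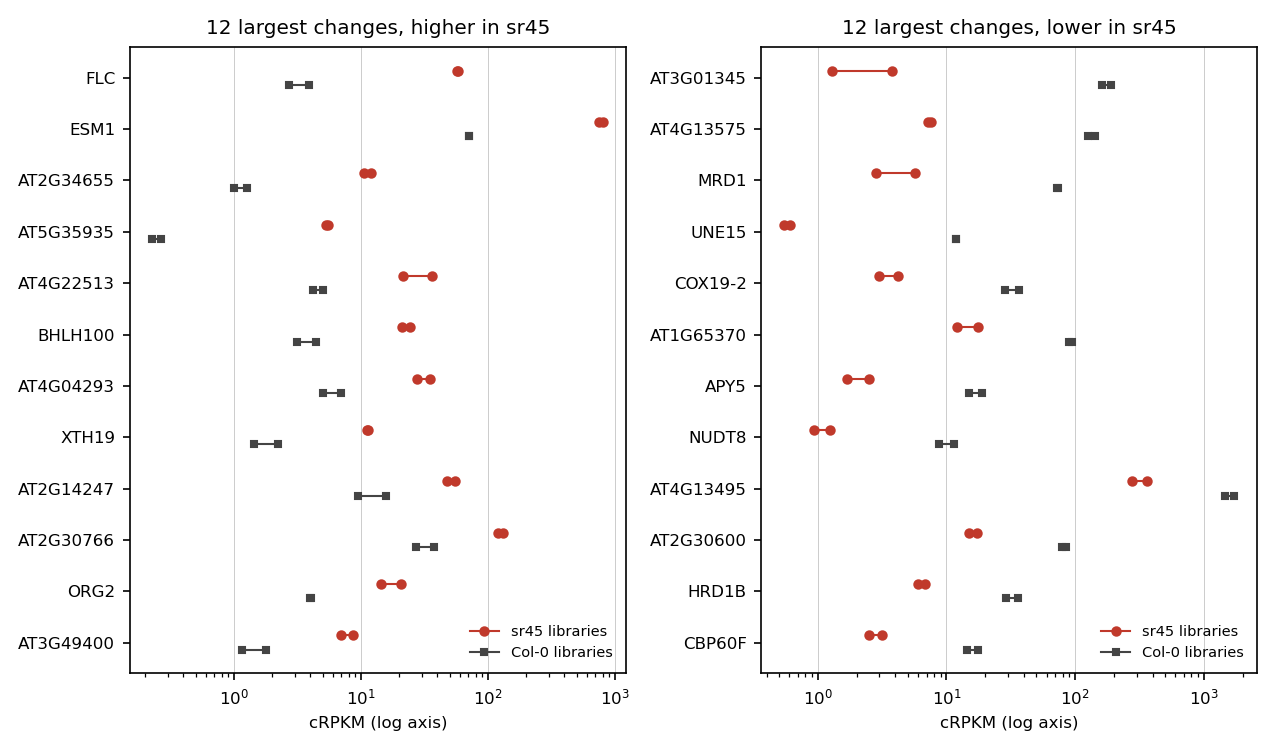
Level in each library, in cRPKM on a log axis, of the 12 loci with the largest rise (left) and the 12 with the largest fall (right) on log2(cRPKM + 1) among those meeting the fold criterion; red circles are the 2 *sr45* libraries, above the 2 Col-0 libraries as grey squares, and lines join libraries of a genotype. The genotypes are apart at every locus, as the criterion requires, and the widest gap is that of AT3G01345.

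In the flowering group, the direction of the repressor and of the activators was opposite. FLC is a MADS-box protein that blocks flowering until winter has passed, and the floral integrator *SOC1* is among the genes it represses. *SOC1* had 16.9 and 22.3 cRPKM in *sr45*, against 48.7 and 60.4 cRPKM in Col-0, 2.78-fold lower. *AGL24*, which works with SOC1 in turning on the floral meristem, had 13.2 and 13.6 cRPKM in *sr45*, against 29.5 and 29.2 cRPKM in Col-0. Both activators were lower in every mutant library (adjusted p = 0.00029 each from limma). These were the 3 of 12 listed flowering genes in the table, 1 higher and 2 lower by limma, beside 27.5% and 61.0% of all loci. Whether the counting used strand is not given in the sources used here, and antisense transcripts are known at *FLC*, so they could be part of its value.

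Jasmonate genes moved as a block. Jasmonate is the wound and herbivore hormone, made in plastids and peroxisomes from a membrane fatty acid, and its own synthesis genes belong to its targets. Of 25 listed genes, 9 were in the table, and all 9 were lower by limma (7 also by the fold criterion), where 61.0% of all loci were. Their median log2 change was -1.35, with a range of -1.91 to -0.96, beside -0.96 over all loci. Among the synthesis genes, *AOC2*, which forms the ring of the hormone precursor, had 37.6 and 34.1 cRPKM in *sr45*, against 86.2 and 99.5 cRPKM in Col-0. Its paralog *AOC1* had 20.0 and 14.2 cRPKM in *sr45*, against 41.4 and 47.5 cRPKM in Col-0. *OPR3*, the reductase of the next step in peroxisomes, had 24.7 and 19.4 cRPKM in *sr45*, against 54.7 and 57.6 cRPKM in Col-0. All these synthesis genes met the fold criterion. Reads of the neighbouring paralogs *AOC1* and *AOC2* may be shared between them.

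Downstream of synthesis the direction was the same. *MYC2*, the master transcription factor of the response, had 10.2 and 9.78 cRPKM in *sr45*, against 25.7 and 16.2 cRPKM in Col-0, and passed limma alone. *TIFY7*, a JAZ repressor that is itself induced by jasmonate, had 45.2 and 49.4 cRPKM in *sr45*, against 135 and 135 cRPKM in Col-0. The vegetative storage protein gene *VSP2*, a classical output, had 80.2 and 81.7 cRPKM in *sr45*, against 204 and 244 cRPKM in Col-0, and its neighbour *VSP1* was 3.60-fold lower. Synthesis, transcription factor, repressor and output were therefore all lower in both mutant libraries. The largest fall of the group was at AT5G05600, an oxygenase of the 2-oxoglutarate and Fe(II)-dependent superfamily, with 2.02 and 1.41 cRPKM in *sr45*, against 7.59 and 11.0 cRPKM in Col-0. *ILL6*, an amidohydrolase that splits jasmonate from amino acids, was 2.25-fold lower.

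Cytokinin response was represented by the type-A response regulators, small proteins that cytokinin induces and that dampen its signal. Of 10 listed genes 4 were present, and all 4 were lower by limma, where 61.0% of all loci were, with a median log2 change of -1.47 beside -0.96. *ARR15* had 4.70 and 5.44 cRPKM in *sr45*, against 26.8 and 22.8 cRPKM in Col-0, 4.89-fold lower. *ARR7* had 21.9 and 20.4 cRPKM in *sr45*, against 60.5 and 74.3 cRPKM in Col-0. *ARR6* had 8.63 and 11.7 cRPKM in *sr45*, against 25.1 and 28.4 cRPKM in Col-0. These 3 met the fold criterion, and *ARR16*, whose *sr45* libraries differed most from each other (3.32 and 1.69 cRPKM, against 5.79 and 8.65 cRPKM in Col-0), passed limma alone.

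Every member of the starch and sugar starvation lists in the table had a log2 change below 0 with all libraries included. Leaf starch is built in plastids by day and taken apart at night, and starvation genes are induced when sugar runs short. Of 22 starch genes 5 were in the table, 4 of them lower by limma, where 61.0% of all loci were lower, and the median log2 change of -1.12 was close to that of all loci (-0.96). *ADG2*, the large subunit of the enzyme that commits glucose to starch, had 91.9 and 108 cRPKM in *sr45*, against 212 and 226 cRPKM in Col-0. The branching enzyme gene *SBE2.1* had 5.44 and 4.93 cRPKM in *sr45*, against 19.1 and 16.8 cRPKM in Col-0. Both synthesis genes were below the wild type in each library, 2.18-fold and 3.47-fold on the means. On the side of breakdown, the limit dextrinase gene *PU1* had 2.19 and 2.36 cRPKM in *sr45*, against 9.01 and 5.64 cRPKM in Col-0, and the beta-amylase gene *BAM6* was 2.25-fold lower. The fifth, *QQS*, which influences starch content, had 37.6 and 59.5 cRPKM in *sr45*, against 56.4 and 61.5 cRPKM in Col-0, and did not pass (adjusted p = 0.24 from limma), although without *sr45* replicate 2 it did, at a log2 change of -0.63.

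Of 18 sugar starvation genes 7 were in the table, 6 lower by limma, again beside 61.0% lower over all loci and with a median log2 change, -1.12, close to the -0.96 of all loci. *POX1*, the mitochondrial proline dehydrogenase, had 11.3 and 11.7 cRPKM in *sr45*, against 46.0 and 39.6 cRPKM in Col-0, 3.73-fold lower. *STR15*, known as a dark-induced senescence gene, had 98.5 and 112 cRPKM in *sr45*, against 200.4 and 222 cRPKM in Col-0, and the monosaccharide importer gene *STP1* 83.8 and 60.9 cRPKM in *sr45*, against 156 and 162 cRPKM in Col-0. The groups were apart for each of them, as at every locus that limma called. *BT2*, a BTB and TAZ domain scaffold protein that responds to nutrients, and *DIN11* were 2.197-fold and 2.43-fold lower.

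The raffinose sugars are galactose-bearing oligosaccharides that protect cells under drought and cold. Here the gene of the first enzyme and 2 genes named for raffinose synthase moved in opposite directions. RefSeq names *RFS2* seed imbibition 2, and the step that either of these 2 genes serves was not tested. *GOLS2*, galactinol synthase, rose to 7.99 and 6.60 cRPKM in *sr45*, against 2.04 and 2.60 cRPKM in Col-0. *RFS6* of the raffinose synthase family, also dark-inducible, had 74.6 and 68.8 cRPKM in *sr45*, against 205 and 179 cRPKM in Col-0, and *RFS2* 13.96 and 11.95 cRPKM in *sr45*, against 37.0 and 30.3 cRPKM in Col-0. All 3 met the fold criterion, 1 higher and 2 lower, beside 11.5% and 30.2% of all loci.

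A block of beta-glucosidase genes fell too. These enzymes free hormones, defence compounds or cell wall sugars from their glucose conjugates, and the substrates of *BGLU5* to *BGLU8* are not well known. Of the 7 listed genes from *BGLU5* to *BGLU11*, 4 were in the table, and all 4 were lower by both criteria, beside 61.0% of all loci by limma and 30.2% by the fold criterion (median log2 change -1.85, the lowest of the lists with at least 3 members in the table). *BGLU8* had 26.9 and 26.6 cRPKM in *sr45*, against 105 and 98.2 cRPKM in Col-0. *BGLU7*, next to it, had 1.73 and 0.642 cRPKM in *sr45*, against 7.62 and 6.39 cRPKM in Col-0, and *BGLU6* had 9.52 and 9.01 cRPKM in *sr45*, against 36.02 and 33.6 cRPKM in Col-0. *BGLU5* was 2.49-fold lower. This list, like the others, was chosen with earlier results of these data known, so its common direction partly restates that choice. The genes sit in 2 tandem pairs, *BGLU5* with *BGLU6* and *BGLU7* with *BGLU8*, so the values within a pair are not independent if reads were shared.

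**Figure D3:**
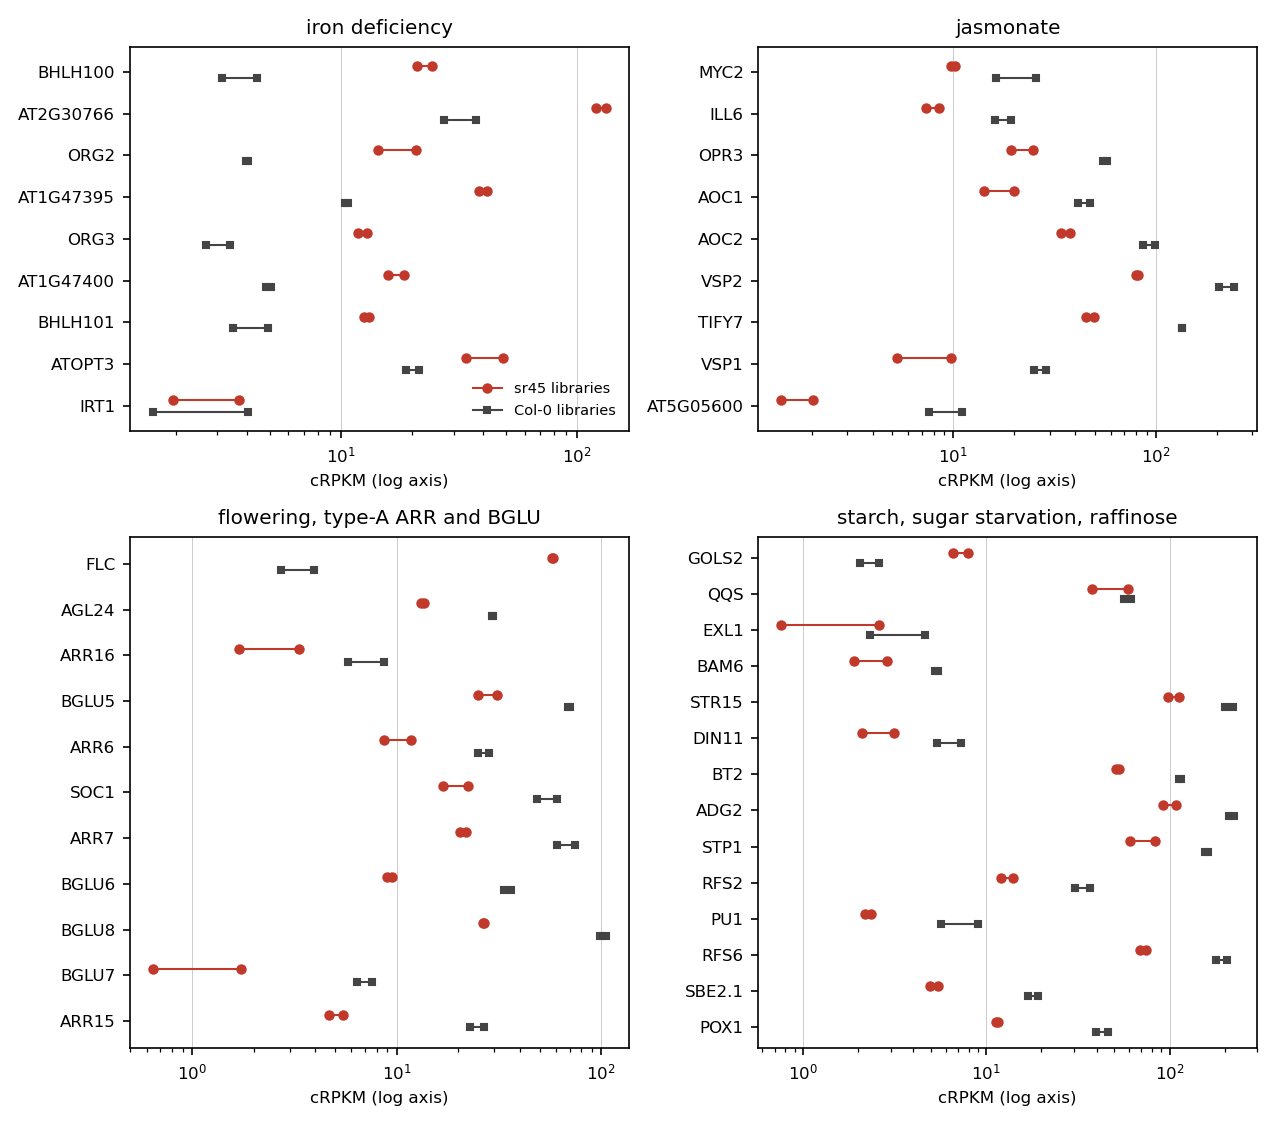
Level in each library, in cRPKM on log axes, of the table's members of the iron deficiency list (top left), the jasmonate list (top right), the flowering, type-A response regulator and BGLU lists (bottom left) and the starch, sugar starvation and raffinose lists (bottom right); red circles are *sr45* libraries and grey squares, drawn beneath them, Col-0 libraries. All members of the jasmonate panel have the *sr45* libraries to the left, while in the iron panel all but *IRT1* have them to the right.

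Of the 7 nitrogen and amino acid genes present, 6 were lower and 1 higher by limma, beside 61.0% and 27.5% of all loci. Their median log2 change of -1.04 was close to the -0.96 of all loci, so the group did not stand apart from the other loci listed. Besides *POX1*, the falls included *ALN*, the allantoinase of purine breakdown, with 15.3 and 17.7 cRPKM in *sr45*, against 38.2 and 32.0 cRPKM in Col-0. The ureide permease gene *UPS2*, the cytosolic glutamine synthetase gene *GLN1-4*, the aminotransferase gene *AGT3* and the nitrilase gene *NIT4* were 1.99-fold to 2.23-fold lower. The exception was the ammonium transporter gene *AMT2*, with 9.48 and 5.67 cRPKM in *sr45*, against 3.37 and 3.64 cRPKM in Col-0.

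Iron deficiency genes formed the clearest block of rises. In iron-starved *Arabidopsis*, the subgroup Ib bHLH factors ORG2 (also bHLH38), ORG3 (bHLH39), BHLH100 and BHLH101 are induced in leaf and root, and with a partner they turn on iron uptake in the root. Of 18 listed genes 9 were in the table, and 8 of these were higher by limma and 0 lower, where 27.5% of all loci were higher. The fold criterion was met by 7, and the median log2 change was 1.73. *BHLH100* had 21.0 and 24.3 cRPKM in *sr45*, against 3.15 and 4.42 cRPKM in Col-0, 5.98-fold higher. *ORG2* had 20.8 and 14.3 cRPKM in *sr45*, against 4.05 and 3.97 cRPKM in Col-0. *ORG3* had 12.9 and 11.9 cRPKM in *sr45*, against 3.41 and 2.68 cRPKM in Col-0. *BHLH101*, finally, was at 12.5 and 13.2 cRPKM in *sr45*, against 3.50 and 4.89 cRPKM in Col-0. Each of the 4 factors was higher in both mutant libraries, with adjusted p-values from limma between 9.5e-05 and 0.00024.

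Because the 4 factors moved together, the 150 bases before each annotated gene start are given, read from RefSeq TAIR10.1 on the gene's strand, 5′ to 3′. None of these windows overlaps an annotated gene. Capitals mark CACGTG, the G-box, which is its own reverse complement.
*ORG2*, chr3:21085246-21085395, minus strand: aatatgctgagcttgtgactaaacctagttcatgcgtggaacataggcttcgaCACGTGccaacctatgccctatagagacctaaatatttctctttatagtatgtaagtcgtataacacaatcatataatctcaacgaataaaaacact
*ORG3*, chr3:21087711-21087860, minus strand: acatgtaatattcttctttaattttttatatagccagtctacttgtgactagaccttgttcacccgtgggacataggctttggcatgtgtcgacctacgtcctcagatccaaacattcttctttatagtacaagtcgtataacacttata
*BHLH100*, chr2:17199455-17199604, minus strand: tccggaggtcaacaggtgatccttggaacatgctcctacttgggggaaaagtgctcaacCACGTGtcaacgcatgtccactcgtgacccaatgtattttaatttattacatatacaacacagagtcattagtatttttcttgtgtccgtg
*BHLH101*, chr5:1139634-1139783, minus strand: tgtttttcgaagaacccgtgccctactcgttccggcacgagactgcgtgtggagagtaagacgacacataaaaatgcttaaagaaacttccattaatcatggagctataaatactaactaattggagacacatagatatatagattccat
The hexamer begins 97 bases before the start of *ORG2* and 91 bases before that of *BHLH100*. Within 250 bases it was found, on either strand, before 3 of the 9 iron genes (these 2 and *ATOPT3*), before 9.13% of the 427 protein-coding genes of the table and before 6.49% of 27443 nuclear protein-coding genes. A match is a run of letters, and no match says only that these letters are not in the window.

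Other members of the iron list followed the factors. AT2G30766, on the iron list although RefSeq gives its product as uncharacterized, had 121 and 132 cRPKM in *sr45*, against 37.4 and 27.3 cRPKM in Col-0. AT1G47395 and AT1G47400, adjoining loci on the same list with the same product entry in RefSeq, were 3.78-fold and 3.46-fold higher. *ATOPT3*, which loads iron into the phloem and carries the shoot's iron signal to the root, had 48.7 and 33.9 cRPKM in *sr45*, against 21.4 and 18.9 cRPKM in Col-0. The root iron importer gene *IRT1* was the one member without a call, at 1.94 and 3.70 cRPKM in *sr45*, against 1.60 and 4.05 cRPKM in Col-0, with libraries of each genotype further apart than the genotypes.

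Glucosinolate genes were higher by limma in 3 of 3 cases in the table, out of 16 listed, where 27.5% of all loci were higher. Glucosinolates are the mustard oil precursors that a myrosinase sets free in damaged tissue. Beside *ESM1*, which favours isothiocyanates among the products, *ESP*, the epithiospecifier protein gene that favours nitriles, had 33.7 and 22.6 cRPKM in *sr45*, against 17.4 and 12.9 cRPKM in Col-0. That call was lost without Col-0 replicate 2, at a log2 change of 0.64. *MYB51*, a regulator of indole glucosinolate synthesis, had 8.93 and 10.4 cRPKM in *sr45*, against 3.31 and 3.96 cRPKM in Col-0.

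Light-responsive genes rose in all 4 cases in the table, out of 10 listed, where 27.5% of all loci were higher by limma (median log2 change 1.01). *BBX30*, a small B-box protein gene of light signalling, had 9.51 and 10.05 cRPKM in *sr45*, against 2.41 and 2.06 cRPKM in Col-0, 4.37-fold higher. *IAA29*, an auxin and shade response gene, had 15.2 and 20.5 cRPKM in *sr45*, against 6.88 and 6.66 cRPKM in Col-0. The early light-induced gene *ELIP1* was 1.87-fold higher. The antenna protein gene *LHCB4.3* was 1.37-fold higher, and its call was lost without *sr45* replicate 1 or Col-0 replicate 2 (log2 change 0.38 in both cases). In the clock group, *RVE2* and AT3G54500 (also *LNK2*) were the members present, out of 21 listed. *RVE2*, a morning MYB-like factor, had 38.6 and 51.7 cRPKM in *sr45*, against 13.8 and 18.3 cRPKM in Col-0, whereas *LNK2*, a light-regulated clock coactivator, had 239 and 276 cRPKM in *sr45*, against 578 and 561 cRPKM in Col-0.

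The other hormone and stress lists were divided. Of 9 cold, dehydration and ABA genes in the table, 4 were higher and 5 lower by limma, beside 27.5% and 61.0% of all loci. The dehydration gene *RD22* had 386 and 313 cRPKM in *sr45*, against 158 and 168 cRPKM in Col-0, and *ATHB-7*, a homeodomain factor induced by ABA, 36.3 and 37.9 cRPKM in *sr45*, against 13.2 and 21.1 cRPKM in Col-0. By contrast the kinase gene *SRK2A*, of a family that transmits osmotic stress, had 19.8 and 17.2 cRPKM in *sr45*, against 63.9 and 77.1 cRPKM in Col-0. The genotypes were apart at all 3 genes, as at every locus that limma called. *MARD1* joined the rises (2.096-fold higher), and the ABA receptor gene *PYL5* and the chloroplast cold proteins *COR15A* and *COR413IM1* the falls, 2.15-fold to 2.30-fold lower. Of 5 auxin genes present 2 were higher, *IAA29* and the influx carrier *LAX3*, and 2 lower, *SAUR15* and the response factor *ARF9*. These limma counts too stand beside 27.5% higher and 61.0% lower over all loci.

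Defence genes in the table numbered 14 of 23 listed, and 7 of them had no call, 5 were higher and 2 lower by limma. Over all 454 loci 52 had no call, 27.5% were higher and 61.0% lower. The transcription factor gene *WRKY60* had 7.34 and 6.26 cRPKM in *sr45*, against 2.93 and 2.67 cRPKM in Col-0, and *ERF104*, an ethylene response factor of the flagellin response, had 5.56 and 4.81 cRPKM in *sr45*, against 1.65 and 1.97 cRPKM in Col-0. The lipid dioxygenase gene *DOX1* and the immune receptor gene *TAO1* were 2.74-fold and 2.15-fold lower. Among 4 ethylene response factors present 3 were higher by limma, including *ERF104* and *ERF003*, beside 27.5% of all loci. *ERF003* had 28.02 and 23.6 cRPKM in *sr45*, against 10.1 and 8.46 cRPKM in Col-0.

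Cell wall and surface genes also moved in both directions. Xyloglucan endotransglucosylases cut and rejoin the tethers between cellulose fibres. *XTH19* had 11.3 and 11.4 cRPKM in *sr45*, against 2.22 and 1.44 cRPKM in Col-0, and *XTH17* was 2.28-fold higher. *XTH25* had 1.40 and 0.931 cRPKM in *sr45*, against 6.15 and 6.90 cRPKM in Col-0, and its neighbour *XTH22* was 1.48-fold lower, a call lost without Col-0 replicate 1 (log2 change -0.45). The family was therefore split, with 2 members higher and 2 lower by limma, beside 27.5% and 61.0% of all loci. Expansins, which loosen walls in growing cells, were higher at *EXPA3* and *EXPA11* (2.01-fold and 2.09-fold) and lower at the expansin-like *EXLA1* (2.42-fold). Their list had 11 members in the table, 5 higher and 2 lower by limma, beside 27.5% and 61.0% of all loci. That balance rested on single libraries, with 4 higher and 5 lower without *sr45* replicate 1, and 5 higher and 1 lower without Col-0 replicate 1. *LTP1*, a lipid transfer protein gene of the epidermis, was the most abundant of the 125 higher loci, with 2010.4 and 1909 cRPKM in *sr45*, against 891 and 957 cRPKM in Col-0. Its neighbour *LTP2* had 71.1 and 63.7 cRPKM in *sr45*, against 21.4 and 26.5 cRPKM in Col-0, while *LTP10* was 2.57-fold lower.

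Mitochondrial carriers split in the same way, 2 higher and 1 lower by limma of 3 in the table, beside 27.5% and 61.0% of all loci. *PUMP4*, a dicarboxylate carrier, had 6.84 and 5.57 cRPKM in *sr45*, against 1.45 and 1.59 cRPKM in Col-0, and its relative *PUMP5* was 2.71-fold higher. *SAMC1*, which brings S-adenosylmethionine into plastids and mitochondria, had 26.9 and 28.6 cRPKM in *sr45*, against 89.5 and 75.3 cRPKM in Col-0. Splicing factors and RNA binding proteins were represented by 5 of 19 listed genes, 3 lower, 1 higher and 1 without a call by limma, beside 61.0% lower and 27.5% higher over all loci. Beyond *SR45* itself, the SR protein gene *RS31A* and *SNRNP65* of the minor spliceosome fell 2.13-fold and 2.08-fold. *UBA2C*, for an RNA-binding protein, had 12.2 and 11.4 cRPKM in *sr45*, against 9.61 and 6.72 cRPKM in Col-0, a log2 change of 0.50 that passed with all libraries (adjusted p = 0.034 from limma) but not in a fit of the *sr45* and Col-0 libraries alone. Its call was also lost without *sr45* replicate 1 (0.46), *sr45* replicate 2 (0.54) or Col-0 replicate 2 (0.27).

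**Figure D4:**
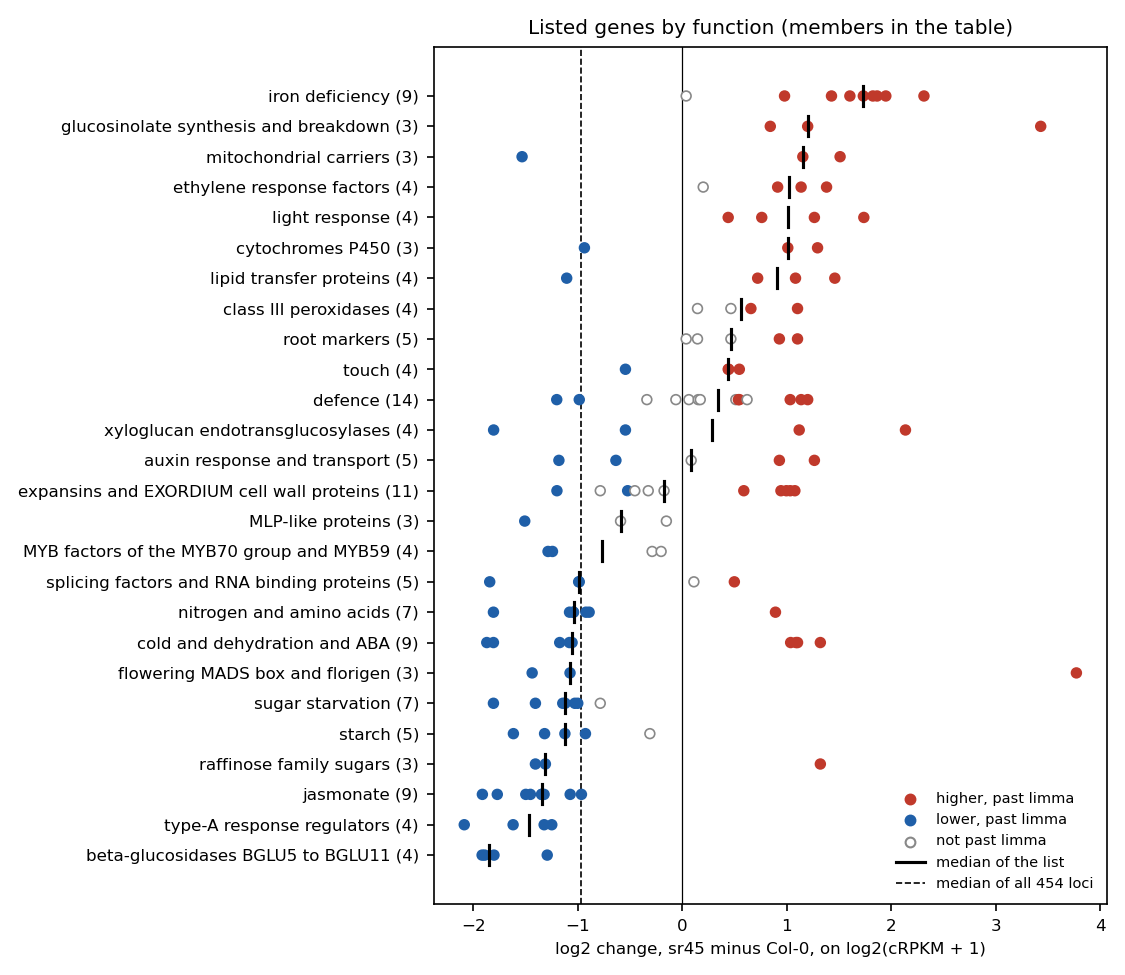
Log2 change, *sr45* minus Col-0, on log2(cRPKM + 1), of the members of each gene list that are in the table, for lists with at least 3 of them; filled circles passed limma (red higher, blue lower), open circles did not, short bars are the medians of the lists and the dashed line is the median of all 454 loci (-0.96). The iron list, with a median of 1.73, stands at the top, and the jasmonate (-1.35), type-A response regulator (-1.47) and BGLU (-1.85) lists at the bottom.

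The direction of change in the mutant went with the number of exons. This was examined over the 427 protein-coding loci of the table found in the RefSeq annotation, with each gene counted by its transcript of most exons. The 118 genes higher by limma had a median of 2 exons, and 41 of them (34.7%) had a single exon. The 262 lower genes had a median of 7 exons, and 15 of them (5.73%) had a single one. At the other end, 8 of the higher and 129 of the lower genes (49.2%) had 8 or more exons. The 47 genes without a call had a median of 2 exons. For all 27444 nuclear protein-coding genes of the annotation the median was 4, with 18.9% single-exon genes and 24.1% with 8 or more exons.

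Along the scale of exon number the median log2 change was 0.70 for the 74 single-exon genes, 0.47 for 57 genes with 2 exons and -0.04 for 67 genes with 3 to 4. It was -1.06 for 108 genes with 5 to 8 exons, -1.15 for 61 with 9 to 12 and -1.06 for 60 with 13 or more. In these medians the turn lay between 3 and 8 exons, with no further step beyond. Loci entered the table through a fold threshold of 2, so the size of the lower medians partly restates that choice. The sign was the same at each level of expression: in the lowest, middle and highest of 3 equal parts of the genes by mean cRPKM, genes with 1 or 2 exons had medians of 0.73, 0.52 and 0.44, and genes with 5 or more had -0.93, -1.06 and -1.19. Transcript length had medians of 1403 nt for the higher and 1666 nt for the lower genes. The parts of length and level in this order were not tested. As the table was chosen for change, these values describe its loci, and no test was run on them.

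**Figure D5:**
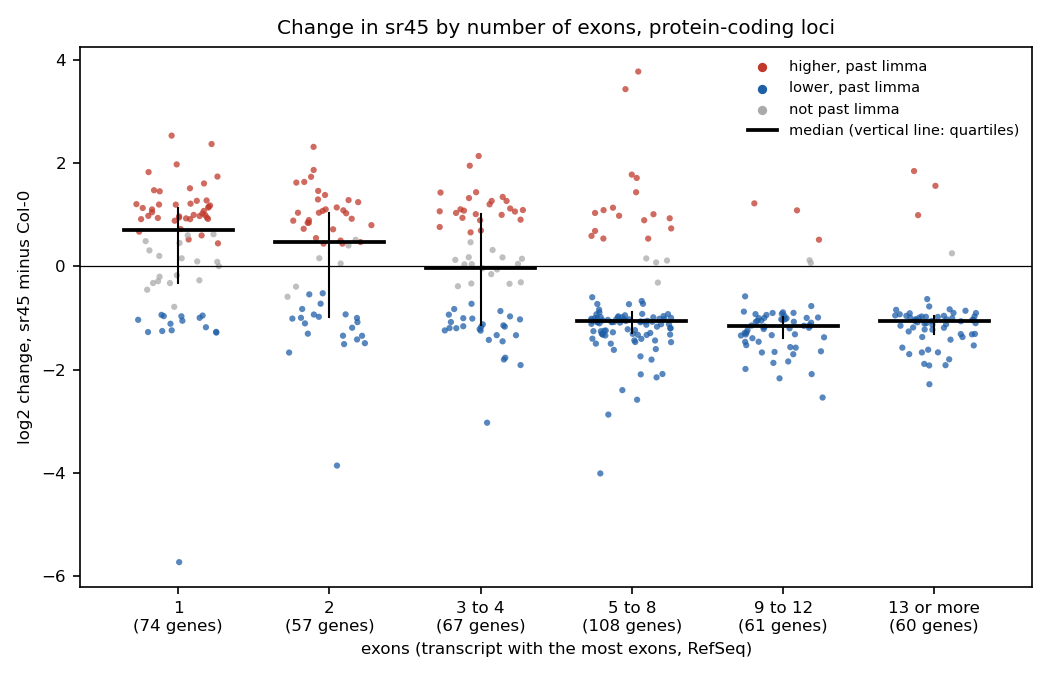
Log2 change, *sr45* minus Col-0, of 427 protein-coding loci by number of exons in RefSeq TAIR10.1; each point is a gene (red higher and blue lower by limma, grey not called), thick bars are medians and thin vertical lines run between the quartiles. The median lies above 0 for genes of 1 or 2 exons and near -1.1 for genes of 5 exons or more.

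Several named genes went against this order. *FLC*, with 8 exons, *NRPC1*, the largest subunit of RNA polymerase III with 29 exons, AT3G49400 with 17, and the transporter genes *ABCC3* and AT5G17700 with 9 each were higher by the fold criterion. *NRPC1* had 5.57 and 5.98 cRPKM in *sr45*, against 1.93 and 0.804 cRPKM in Col-0. Lower single-exon genes by the same criterion were AT3G01345, AT4G10910, AT5G40690 and the Kunitz trypsin inhibitor gene *ATKTI1*. Of the blocks described above, the iron genes had 1 to 5 exons, the called starch genes 7 to 29 and the BGLU genes 12 or 13. The jasmonate genes, all lower, had 1 to 8.

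Of 16 non-coding RNA genes present 12 were lower and 2 higher by limma, beside 61.0% lower over all loci, and their median log2 change was -1.13, close to the -0.96 of all loci. The most abundant of those that fell by the fold criterion was AT4G13495 on chromosome 4, with 277 and 359 cRPKM in *sr45*, against 1448 and 1729 cRPKM in Col-0, 5-fold lower. A pair of miRNA precursor loci lie in or beside it. *MIR850A* had 26.8 and 44.2 cRPKM in *sr45*, against 126 and 128 cRPKM in Col-0, and *MIR863A* 8.52 and 14.6 cRPKM in *sr45*, against 32.0 and 35.5 cRPKM in Col-0. All 3 were lower in both mutant libraries, but the loci overlap and can share reads, and libraries of polyadenylated RNA do not measure the mature miRNA. The mature miRNAs that the precursors encode are given from RefSeq TAIR10.1, 5′ to 3′, with the seed (bases 2 to 8) in capitals, to show that their seeds differ.
miR850: uAAGAUCCggacuacaacaaag
miR863-5p: uUAUGUCUuguugaucucaau
miR863-3p: uUGAGAGCaacaagacauaau
The non-coding RNAs AT4G08035 and AT4G01593 were 3.19-fold and 2.86-fold lower. The 2 higher ones, named for being exceptions, were AT5G48412, with 66.2 and 96.5 cRPKM in *sr45*, against 33.2 and 36.2 cRPKM in Col-0, and AT1G67105, with 8.56 and 6.80 cRPKM in *sr45*, against 0.509 and 3.18 cRPKM in Col-0. For AT1G67105 the log2 change was 1.78, but 1.05 without Col-0 replicate 1 and 2.52 without Col-0 replicate 2.

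AT4G13495 is also part of a run of lower loci. In 50.8 kb of chromosome 4, from 7842967 to 7893761, the table held AT4G13495, *MIR850A*, *MIR863A*, *UNE15* and AT4G13575, all lower, among 27 annotated genes of the stretch. Over all chromosomes, 38 pairs of adjacent table loci lay within 10 kb of each other, and in 25 of them (65.8%) the log2 changes had the same sign, beside 55.0% over all pairs of nuclear loci. In 27 pairs both loci were called, and in 21 of these the direction was the same, higher in 7 and lower in 14. The same share over all pairs of called loci was not worked out. With 125 loci called higher and 277 lower, many such pairs share a direction wherever they lie. Overlapping loci such as AT4G13495 and *MIR850A* were counted as pairs. Many were tandem copies already met above, such as *AOC1* with *AOC2*, *VSP1* with *VSP2*, *ORG2* with *ORG3* and *LTP1* with *LTP2*, whose reads may be shared. A tandem group of lipid-transfer superfamily genes on chromosome 4 rose together, with AT4G22513 at 21.4 and 36.1 cRPKM in *sr45*, against 4.16 and 5.04 cRPKM in Col-0, and AT4G22517 beside it 2.98-fold higher.

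The organelle-encoded transcripts of the table did not separate the genotypes. *PSBL* of the plastid had 20.8 and 108 cRPKM in *sr45*, against 125 and 28.1 cRPKM in Col-0. The mitochondrial *COX2* had 6.71 and 21.0 cRPKM in *sr45*, against 30.7 and 8.18 cRPKM in Col-0, and *NAD4L* 4.94 and 18.9 cRPKM in *sr45*, against 28.01 and 7.10 cRPKM in Col-0. In each case 1 library of either genotype was several times above the other, and none of the 3 passed limma (adjusted p between 0.49 and 0.72).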

How the data were processed

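Whole seedlings were sequenced from polyadenylated RNA. Mapping was by the authors with vast-tools 2.5, on the araTha10 library (TAIR10, extending Ensembl Plants 31), followed by quantile normalisation. The deposited unit is cRPKM, that is RPKM corrected for mappable positions. Counts were not used here, so the depth behind each value is unknown and its precision is known only from 2 libraries per genotype. The design text states 30M reads per sample. 0 columns were left without a sample. The table holds 454 loci and no value at 0.

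limma 3.58.1 in R 4.3.3 was fitted to log2(cRPKM + 1), which understates changes of low genes, over all 6 libraries (3 residual degrees of freedom), with Benjamini-Hochberg adjustment over 454 loci. The fold criterion follows the wording of the study's methods without its minimum of reads. It called 189 loci, fewer than the study reports for this comparison, so the study's own calls were not reproduced exactly. Without adjustment, 403 loci had p under 0.05. Symbols came from the deposited table, or from RefSeq TAIR10.1, in which 450 loci were found. Exons, neighbours and sequences were taken from RefSeq by locus, with Python 3.11.15 and pandas 2.3.3.

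The gene lists, the tests and the loci were chosen with earlier results of these data known. Named were *SR45*, *SAP18*, the 12 largest log2 changes in each direction among loci meeting both criteria, and members of the lists, with up to 6 in full. Loci named as exceptions to a pattern (*NRPC1*, *ABCC3*, AT5G17700, AT4G10910, AT5G40690, *ATKTI1*, *UBA2C*), non-coding RNAs and neighbours were picked after their values were seen. Alternatives covered fold threshold, form of the ratio, minimum level, pseudocount, libraries in the fit, variance model, rescaling, a replicate block and leaving out each library.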

Additional observations from a re-analysis of the deposited data

How the results depend on the processing

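By the fold criterion 52 loci were higher and 137 lower. A threshold of 1.5 gave 100 higher and 264 lower, and 3 gave 18 and 33. With ratios of group means there were 100 higher and 257 lower, and with a minimum of 10 cRPKM 31 were higher. Scaling the *sr45* libraries up to remove a median log2 difference of -0.17, taken from 46 loci called only in the libraries labelled *sap18*, gave 82 higher and 82 lower, so that 50% of calls were higher in place of 27.5%, and 134 calls were shared. The iron, jasmonate, type-A response regulator, BGLU, starch, sugar starvation and light lists kept their counts of limma calls after it. The 46 loci were picked by their calls and are no neutral reference, so this run is a change of scale and not a correction. Under limma the counts stayed within 1.5 times of 125 and 277 in every alternative run, and no locus was called in the opposite direction.

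Leaving out each library in turn gave 64 to 76 higher and 172 to 192 lower loci by the fold criterion, and 112 to 122 higher and 272 to 280 lower by limma. Among loci without a call, the log2 change turned sign when 1 library was left out for *SAP18* (-0.083 to 0.23), *QQS* (-0.63 to 0.014), *IRT1* (-0.44 to 0.52), *NAD4L* (-1.42 to 0.43), *COX2* (-1.28 to 0.51) and *PSBL* (-1.48 to 0.85).

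Replicate numbers did not pair the libraries, with a correlation of deviations of -0.11 between *sr45* and Col-0. A replicate block gave 127 higher and 278 lower loci by limma, and with the Col-0 numbers crossed, an alternative chosen after seeing the data, 124 and 277. With 2 libraries per genotype and no depths, changes under 2-fold in low genes were not well resolved.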

Other observations

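Gene families defined by words of their annotated product, chosen after the values were seen, were also described. Of 25 loci with the word kinase 20 were lower and 3 higher by limma (median log2 change -1.06), where 61.0% of all loci were lower and the median was -0.96. The kinases included *SERK2*, a co-receptor of brassinosteroid signalling, with 7.89 and 11.6 cRPKM in *sr45*, against 28.9 and 27.3 cRPKM in Col-0, and *MPK17*, with 38.9 and 54.9 cRPKM in *sr45*, against 149 and 131 cRPKM in Col-0. All 6 RING or U-box loci were lower, as were 6 of 8 methyltransferases, with no call at the other 2, again beside 61.0% over all loci. Lectins ran the other way, with 3 of 4 higher, beside 27.5% of all loci. Of 38 loci with an uncharacterized or unknown product, 20 were higher and 18 lower, a share of rises above that of all loci (27.5%), although the difference was not tested.

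Of 7 pseudogenes present 4 were higher and 3 lower by limma, beside 27.5% and 61.0% of all loci. *MYB59* was 2.40-fold lower and *AtMYB70* 2.75-fold lower, while the other 2 listed MYB genes of that group in the table had no call. *PER33*, a class III peroxidase gene, was 2.22-fold higher.

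Short sequences were counted on both strands of the 250 bases before each gene start. CACGTG was found before 11.0% of the limma-higher and 9.16% of the limma-lower genes (6.49% of all 27443). AAATATCT, the evening element, was found before 5.08% of the higher and 11.1% of the lower genes (4.79% of all). TTATCC was found before 12.7% of the higher and 15.3% of the lower genes (12.5% of all). TTGACC was found before 14.4% of the higher and 10.3% of the lower genes (12.2% of all), and AGATTC before 16.1% of the higher and 20.2% of the lower (16.4% of all). GCCGCC was found before 0 of 118 higher genes and 2.29% of the lower (1.87% of all). None of the 6 sequences searched contains another. No test was run on these shares, and a match is not a binding site.

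Apart from the organelle loci and on log2(cRPKM + 1), AT2G29170, for a Rossmann-fold protein, had the widest gap between replicates, with 12.7 and 3.52 cRPKM in *sr45*, against 20.2 and 28.5 cRPKM in Col-0.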
